A study of Mus musculus with 12 samples.

Results

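The cytosolic ribosome is built from ribosomal RNA and a set of ribosomal proteins, most of which are present in 1 copy per particle. Proteins of the large subunit (symbols starting Rpl) surround the site where peptide bonds form and the tunnel through which the new chain leaves, and proteins of the small subunit (Rps) hold the mRNA and the decoding site. Their mRNAs are abundant in most cells, many start with a run of pyrimidines after the cap (the 5' terminal oligopyrimidine or TOP motif, through which translation is controlled), and in neurons they are also found in dendrites and axons. The genes analysed here are the rows of the striatal count table with the symbol of a cytosolic ribosomal protein. Rpl26, Rps3a1 and Rps3a3 were set aside by the rule. Of 57132 rows, 86 had such a symbol, and 77 of these reached a CPM (the count scaled to the size of the library) of at least 0.5 in at least 3 of the 12 libraries, 46 of the large and 31 of the small subunit, among 13902 features that reached it in all. All 77 are protein coding genes in the GENCODE M39 annotation, spread over 19 chromosomes, with 4 on the X chromosome. The rule used no difference between genotypes.

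The striatum was taken from 10-month-old C57Bl/6 mice, 6 of them knockouts of the trace amine-associated receptor TAAR5 (group TAAR5-KO) and 6 littermates of wild type (group WT). The labels name no treatment. RNA depleted of ribosomal RNA was sequenced as 100-base single reads. The label TAAR5-KO stands on the columns NK1 to NK6 and the label WT on NK7 to NK12, and neither the animal nor its sex is tied to a column, although the study used both sexes. Taar5 had 1 to 6 counts in each library labelled TAAR5-KO but 0 in 4 of the 6 labelled WT, with 1 count in NK8 and 2 in NK11. Most of these counts lie under the label TAAR5-KO. They are too few to settle whether the labels are right, because 0 allows up to 3 counts. Each library is named by its label below, and every direction follows that label.

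Total counts ran from 11269915 to 34824450 per library, of which ribosomal RNA features held 64.3% to 88.1%, so that 1819907 to 6399188 counts were left. The 77 ribosomal protein genes had 5717 to 31229 counts per library, or 0.164% to 0.488% of the counts outside ribosomal RNA. Values below are CPM on library sizes scaled by TMM (trimmed mean of M-values) factors, which ran from 0.375 to 2.46. The libraries NK10, NK11 and NK12, all labelled WT, stood apart on single rows described below, and counts of calls are therefore also given without them. Spiny neuron markers, which define the main neuron of the striatum, summed to 195 to 431 CPM per library.

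Of the 9 rows with a ribosomal protein symbol that stayed below the level, none exceeded 4 counts in any library. Rps12l1, Rpl32l, Rpl6l and Rps3a2 are annotated as processed pseudogenes, and Rpl10l, Rpl3l and Rpl39l are paralogs of Rpl10, Rpl3 and Rpl39 known from testis or muscle. Rpl24 and Rps10, which encode core ribosomal proteins, had 25 and 17 counts over all 12 libraries. In both, exonic bases are shared with another annotated row on the same strand, 47.0% of them in Rpl24 and 20.6% in Rps10. How the counting treated reads that fit several rows is not given in the sources used here, and its part in these low counts was not tested. At the edge of the level, Rps4l and Rps27l were the lowest genes kept, with a third-highest CPM on total counts of 0.666 and 0.714, and Rps10 was the highest left out, with 0.162.

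Levels between genes were compared only as CPM per kb of merged exons, averaged over the 12 libraries. They spanned a 108-fold range, from 0.274 ± 0.115 CPM per kb (SD, n = 12) for Rpl22l1, a paralog of Rpl22, to 29.6 ± 3.47 for Rpl17, a protein of the tunnel exit. The median over the 77 genes was 2.97 CPM per kb, against 0.558 for all 13902 features, with 3.21 for the large and 2.97 for the small subunit. In the large subunit Rpl17 was followed by Rpl4, whose product lines the tunnel, at 23.5 ± 1.19, and by the stalk protein Rplp1 at 17.99 ± 2.97. In the small subunit the highest were Rps15 at 22.03 ± 3.34, Rps26 at 14.7 ± 1.84 and Rps6, the substrate of S6 kinase, at 12.7 ± 0.911. The SDs of Rpl4 and Rps15 overlap, so the order of these neighbours is not resolved. At the other end of the large subunit stood Rpl22l1, Rpl27 (0.459 ± 0.195) and Rpl7l1 (0.536 ± 0.073). In the small subunit these were Rps4l (0.399 ± 0.251), Rps27l (0.405 ± 0.126) and Rps19 (0.683 ± 0.0968). Merged exons ran from 383 to 6270 bases, and long rows include exons of rare isoforms, which lowers a level per length.

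**Figure D1:**
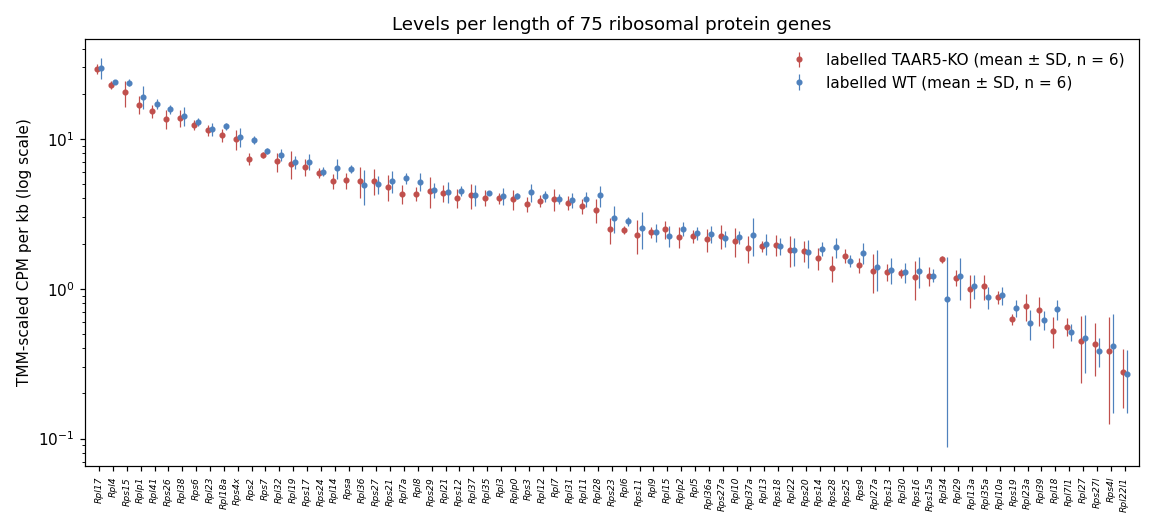
Levels of 75 of the 77 ribosomal protein genes, ordered by their mean over 12 libraries, as TMM-scaled CPM per kb on a log axis; red and blue points are means of libraries labelled TAAR5-KO and WT, and bars are SDs (n = 6). Levels fall from 29.6 for Rpl17 to 0.274 for Rpl22l1, and the 2 colours lie close together for most genes, with the wide bar of Rpl34 labelled WT as an exception.

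The paralogs in the rule were low beside their partners. Rpl7l1 stood at 0.536 CPM per kb against 3.99 for Rpl7, Rps27l at 0.405 against 5.09 for Rps27, Rpl22l1 at 0.274 against 1.81 for Rpl22, and Rps4l at 0.399 against 10.1 for Rps4x. Rpl36al, the paralog of Rpl36a (2.23 CPM per kb), had at most 1 count in any library. The stalk proteins, which recruit the elongation factors, were uneven per length: Rplp1 had 17.99, Rplp0 4.04 and Rplp2 2.36 CPM per kb. Their merged exons lengthen in the same order, with 499, 1659 and 2072 bases, so part of this spread lies in the division by length. Rpl5 (2.30) and Rpl11 (3.77), which bind 5S rRNA and can inhibit Mdm2, were near the median.

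Most ribosomal protein genes have processed copies scattered over the genome, and a blastn search of each coding sequence against GRCm39 found at least 1 copy with 95% identity or more over at least 80% of its length for 72 of the 77 genes, 587 copies in all, from 0 to 56 (for Rpl21) per gene with a median of 6. Every 100-base window of the coding sequence, the read length, recurs exactly elsewhere in the genome in 24 of the 76 genes long enough to hold one. Rpl17, the highest gene per length (29.6 CPM per kb), Rps6, Rpl11 and Rps28 are among them. So is Rpl27, one of the lowest of the large subunit (0.459 CPM per kb). The part of recurring windows in the level of a single gene was not tested. In 5 of the 76, Rps3 among them, no window recurs. The 579 annotated rows at these copies held 2125 counts over the 12 libraries, 1.28% of the 165677 counts on the 77 genes, and 185 of them had none. Genes above the median share of recurring windows (71.1%) had a median level of 3.37 CPM per kb and the others 2.39.

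The gene with the clearest genotype difference, Rps2, shows how similar a copy can be. Its copy Rps2-ps13 (chrX:51987465-51988346) is 99.2% identical over 879 bases of coding sequence, with the 7 differences T60A, A84G, T204C, G300A, C444T, C453A and T756C (base of Rps2, position from 1 at the A of the start codon, base of the copy). The stretch from 401 to 460 of the coding sequence follows with the differing bases in capitals. Within the coding sequence, only reads that cover such bases can tell the rows apart. The stretch of the copy lies at chrX:51987865-51987924 on the plus strand of GRCm39.
Rps2: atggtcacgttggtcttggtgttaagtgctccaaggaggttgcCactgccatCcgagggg
Rps2-ps13: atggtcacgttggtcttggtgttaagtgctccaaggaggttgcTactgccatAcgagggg
Rps2-ps13 had 9 counts in NK10, 72 in NK12 and 0 in the other 10 libraries, where 0 allows up to 3 counts. Beside the counts of Rps2 itself, this was 5.62% of the sum of both rows in NK10 and 7.75% in NK12. Only libraries labelled WT held these counts.

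Promoters were read from the RefSeq table of GRCm38.p6, which holds 300 bases around the start of 56 of the 77 genes. A run of at least 8 C or T within 30 bases before or after the annotated start was found in 32 of the 56 (57.1%). The share was 25.8% of all 27025 genes in the table. Such a run may lie before the start, so these are not shares of TOP mRNAs. The letters CGGAAG, a match to the core of ETS factor sites, were found on either strand in 37 of 56 (66.1%) against 18.8% of all, and AAGATGGC, a match to the YY1 core, in 6 (10.7%) against 3.19%. The windows listed here run from 10 bases before the annotated start to 20 bases from it, for the genes with the smallest p in the genotype comparison that are in the table and for Rps6. The longest run of C or T, where it has 5 or more bases, is in capitals, so that a start with and without a TOP-like run can be compared.
Rps2 at chr17:24720053-24720082 on the plus strand: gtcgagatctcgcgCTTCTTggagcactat
Rpl7a at chr2:26910797-26910826 on the plus strand: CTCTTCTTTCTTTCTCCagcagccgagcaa
Rpl18 at chr7:45718061-45718090 on the plus strand: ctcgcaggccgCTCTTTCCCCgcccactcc
Rpl14 at chr9:120571507-120571536 on the plus strand: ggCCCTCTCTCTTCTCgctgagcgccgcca
Rpl28 at chr7:4792955-4792984 on the plus strand: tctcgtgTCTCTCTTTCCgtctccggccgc
Rps28 at chr17:33824543-33824572 on the minus strand: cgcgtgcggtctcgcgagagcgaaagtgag
Rpsa at chr9:120127756-120127785 on the plus strand: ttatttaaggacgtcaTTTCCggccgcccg
Rps9 at chr7:3704031-3704060 on the plus strand: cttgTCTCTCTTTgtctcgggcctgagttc
Rps6 at chr4:86857348-86857377 on the minus strand: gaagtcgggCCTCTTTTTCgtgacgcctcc
Long runs stand at the starts of Rpl7a, Rpl14, Rpl28 and Rpl18, and a shorter one lies in Rps2 and Rpsa, whereas the window of Rps28 has none. These are matches of letters, and the annotated start need not be the one used in striatum. Genes with and without the run had median log2 fold changes of −0.08 (32 genes) and −0.14 (24 genes).

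Between genotypes, 2 of the 77 genes changed by the likelihood ratio test of edgeR (adjusted p under 0.1, Benjamini-Hochberg over all features), Rps2 and Rpl7a, both lower in libraries labelled TAAR5-KO. None was higher. Over all 13902 features, 1.65% were called, 0.691% lower and 0.957% higher, so 2 of 77 is close to that background. The quasi-likelihood test of edgeR called Rps2 alone, beside 0.453% of all features. Without NK10, NK11 and NK12 the likelihood ratio test called 0 of the 77 genes, among 15 features in all, and 7 had an unadjusted p under 0.05, all in the lower direction, beside 903 of 13396 features in either direction. In bulk tissue, fewer cells of a type and less RNA per cell cannot be told apart.

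Rps2 (chr17:24937090-24940903, plus strand, GRCm39) encodes the protein at the entry of the mRNA channel. In libraries labelled TAAR5-KO it ran from 11.9 to 15.5 CPM with a median of 13.3, and in those labelled WT from 16.03 to 19.4 with a median of 18.2. The groups did not overlap, with NK1 lowest and NK12 highest. Mean levels were 13.432 ± 1.231 CPM and 18.002 ± 1.107 CPM (SD, n = 6 for each label). The Rps2 log2 fold change was −0.42 with an SE of 0.0876 (adjusted p = 0.00134 by the likelihood ratio test and 0.0351 by the quasi-likelihood test). Groups without overlap in this direction were found in 0.388% of all features, and 0.626% lay without overlap in the other direction, whereas Rps2 was the only one of the 77 genes. Leaving out any 1 library kept the call, with log2 fold changes from −0.46 to −0.39. Without NK10, NK11 and NK12 the log2 fold change was −0.37 with adjusted p = 0.181, in a fit that called 15 features in all. Adding the counts at near-identical copies gave −0.45 with adjusted p = 0.00170. Other rows on the same strand share 7.32% of its exonic bases.

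Rpl7a (chr2:26800776-26803330, plus strand), a gene of the surfeit cluster that hosts 3 small nucleolar RNA rows, ran from 6.05 to 8.86 CPM with a median of 7.72 in libraries labelled TAAR5-KO. Those labelled WT ran from 8.67 to 11.1 with a median of 9.79. The groups overlapped only through NK4 at 8.86 labelled TAAR5-KO and NK10 at 8.67 labelled WT. Mean levels were 7.64 ± 1.11 and 9.72 ± 0.867 CPM (SD, n = 6 for each label). The Rpl7a log2 fold change was −0.35 with an SE of 0.107 (adjusted p = 0.0742 by the likelihood ratio test and 0.163 by the quasi-likelihood test). When each library in turn was left out, the call held in 5 of 12 fits and was lost without NK1, NK3, NK5, NK7, NK8, NK11 or NK12, with values from −0.40 to −0.30.

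**Figure D2:**
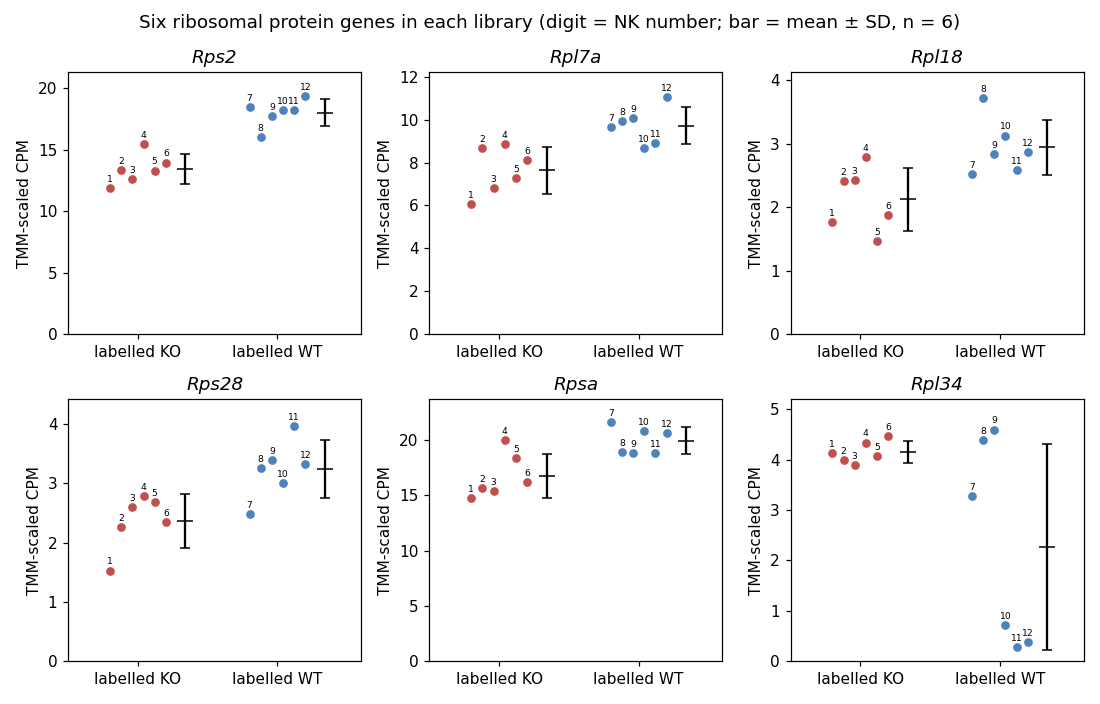
TMM-scaled CPM of 6 ribosomal protein genes in each library, with the y axis from 0; red points are labelled TAAR5-KO and blue points labelled WT, digits give the NK number, and black bars are mean ± SD (n = 6). Rps2 shows no overlap between 11.9 to 15.5 and 16.03 to 19.4 CPM, Rpl7a, Rpl18, Rps28 and Rpsa overlap, and Rpl34 is near 0 in NK10, NK11 and NK12.

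Further genes had unadjusted p-values under 0.05 without passing the adjustment. With the 2 called ones there were 17 such genes, 7 of the large and 10 of the small subunit, and all 17 had lower means in libraries labelled TAAR5-KO. The same limit was passed by 5.51% of all features in that direction, and by 6.39% in the other, where none of the 77 stood. Genes of the list share libraries and are not independent of each other. Rpl18 had 2.12 ± 0.499 against 2.94 ± 0.437 CPM, with a log2 fold change of −0.50 and an SE of 0.172 (likelihood ratio test, adjusted p = 0.140), on only 23 to 127 counts per library. Rps28, a small protein near the mRNA exit, had 2.37 ± 0.456 against 3.24 ± 0.487 CPM and differed by −0.43 on the log2 scale (SE 0.155, likelihood ratio test, adjusted p = 0.160). For Rpsa, the laminin receptor precursor that completes the small subunit, the values were 16.7 ± 2.02 and 19.9 ± 1.23 CPM, a difference of −0.25 on the log2 scale (SE 0.0919, likelihood ratio test, adjusted p = 0.188). NK4, labelled TAAR5-KO, lay inside the range of the libraries labelled WT for Rpl18, Rps28 and Rpsa, and NK3 and NK5 did so for Rps28.

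Among the next genes by p were Rpl14, Rpl28 and Rpl8 (which lies near the site of peptide bond formation) of the large subunit, with log2 fold changes of −0.31, −0.31 and −0.29, and Rps9 of the small subunit, with −0.31. Their adjusted p-values lay between 0.163 and 0.263 (likelihood ratio test). Single libraries moved some of these over the threshold: without NK4, the calls were Rpl7a, Rpl18 and Rpl28 of the large and Rps2 and Rpsa of the small subunit, without NK7 Rps28 was added to Rps2, and without NK10 Rpl14 was added to Rpl7a.

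**Figure D3:**
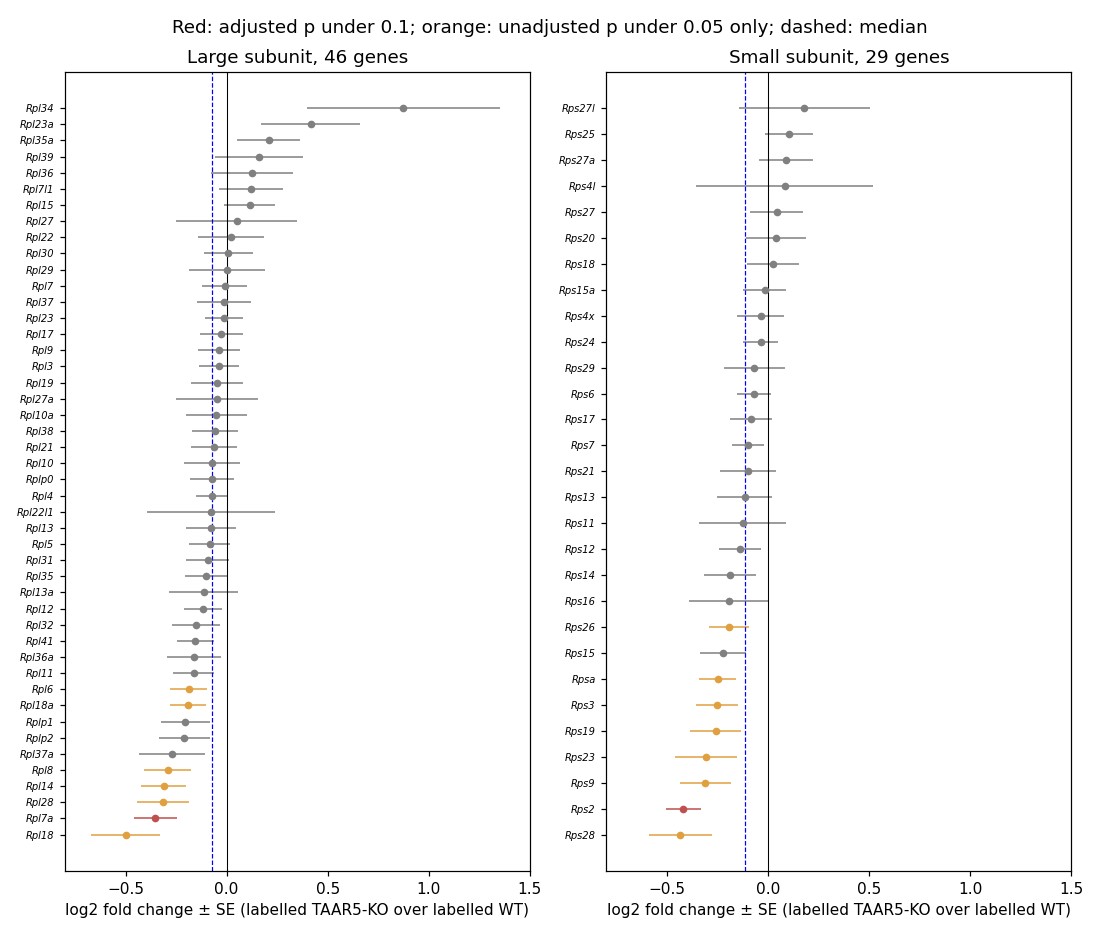
Log2 fold change (labelled TAAR5-KO over labelled WT) with SE of the 46 large and 29 of the 31 small subunit genes, ordered by size; red points passed an adjusted p under 0.1, orange points an unadjusted p under 0.05 only, and the dashed line is the median over all genes of the subunit. Most points lie left of 0 in both panels, at medians of −0.07 and −0.12, and Rpl34 lies farthest right at 0.87 with a wide SE.

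As a group the genes lay slightly lower in libraries labelled TAAR5-KO. The median log2 fold change was −0.07 over the 46 genes of the large subunit, of which 35 were below 0, and −0.12 over the 31 of the small subunit, of which 24 were below 0. Over all features the median was −0.01, with 7104 of 13902 below 0. Summed over the 46 large subunit genes, the level was 371 ± 19.5 CPM under the label TAAR5-KO and 393 ± 19.9 CPM under the label WT (SD, n = 6 for each), ranges of 352 to 395 and 360 to 414 that overlap. For the 31 small subunit genes the sums were 262 ± 18.6 and 289 ± 10.7 CPM, with ranges of 234 to 287 and 271 to 303 that overlap as well. The ratio of small to large was 0.706 ± 0.0275 and 0.736 ± 0.0309.

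Within each label the libraries differed. In NK6 and NK1, labelled TAAR5-KO, 14 and 19 of the 77 genes were above their own median over all libraries, but in NK4, with the same label, 51 were. In libraries labelled WT the number ran from 29 in NK11 to 61 in NK8. The median deviation of the small subunit genes was lowest in NK1, at −0.25 on the log2 scale, and highest in NK10, at 0.14. The spread of most single genes was modest, with a median biological coefficient of variation of 0.108 against 0.125 over all features, and only Rpl34 at 0.555 and Rps4l at 0.409 exceeded the rest by far.

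**Figure D4:**
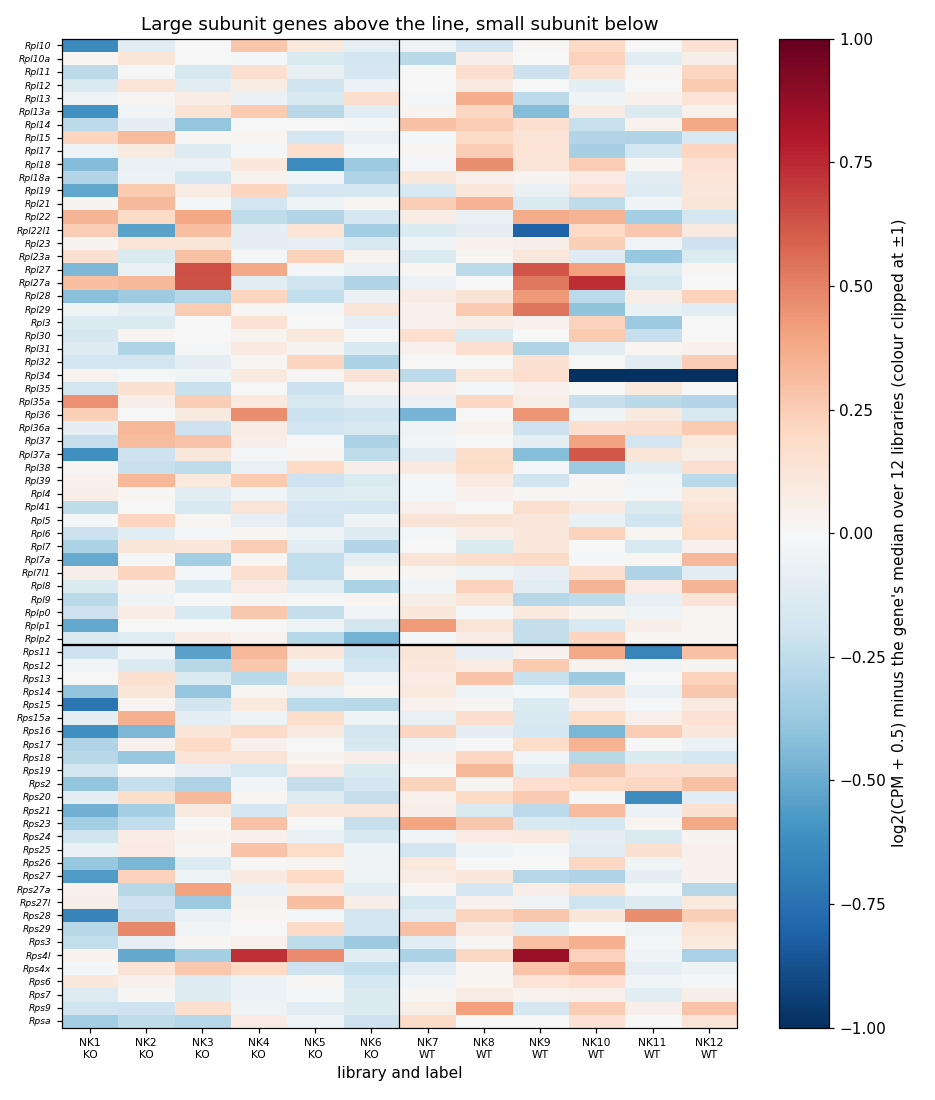
Each row is 1 of 75 ribosomal protein genes and each column 1 library (KO, labelled TAAR5-KO; WT, labelled WT); the colour is log2(CPM + 0.5) minus the gene's median over 12 libraries, clipped at 1 and −1. Columns NK1 and NK6 are mostly blue, and the 3 darkest blue cells are Rpl34 in NK10, NK11 and NK12.

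Rpl34 (chr3:130520480-130524047, minus strand), a protein of the large subunit, was singled out after its values were seen, as the only gene that departed from its own median by more than 1 on the log2 scale in any library. It had 42 to 171 counts in NK1 to NK9 but 6 in NK10, 6 in NK11 and 17 in NK12. On the CPM scale, libraries labelled TAAR5-KO ran from 3.89 to 4.46 and NK7, NK8 and NK9 were at 3.28, 4.38 and 4.59, whereas NK10, NK11 and NK12 were at 0.723, 0.277 and 0.384. The highest and the lowest library thus carry the same label. The log2 fold change of 0.87 (SE 0.477) was not called (adjusted p = 0.470, likelihood ratio test), and it was 0.07 without those 3 libraries.

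The copies of Rpl34 held few counts. The 5 near-identical copies of Rpl34 had at most 1 count each in any library. The closest, Rpl34-ps1, is 99.4% identical over 351 bases, with the differences T132C and C318G (numbered as for Rps2), and had 0 counts throughout. The stretch from 120 to 179 of the coding sequence is shown, with the differing base in capitals. The copy's stretch lies at chr6:71101713-71101772 on the plus strand of GRCm39.
Rpl34: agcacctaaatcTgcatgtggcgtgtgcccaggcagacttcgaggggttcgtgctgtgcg
Rpl34-ps1: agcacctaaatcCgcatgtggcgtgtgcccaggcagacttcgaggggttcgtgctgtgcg
Another copy, Rpl3-ps1 (chrX:13068810-13070019, 99.8% identical to Rpl3 over 1209 bases), had 7 counts in NK11 and 10 in NK12 and at most 2 elsewhere. Rpl3 itself was at 10.1 CPM in NK11, its lowest value over the 12 libraries, and at 13.1 CPM in NK12. Its range was 10.1 to 15.4 CPM in libraries labelled WT and 11.8 to 14.5 in those labelled TAAR5-KO.

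By role, the genes around mRNA entry and decoding had the lowest median of the lists examined. This rank is a description only, because the list holds Rps2 and the lists were chosen with earlier results of these data known. Over all features, 0.691% were called lower by the likelihood ratio test, and 5.51% were lower with an unadjusted p under 0.05. Of the 7 in that list (Rps2, Rps3, Rps9, Rps15, Rps23, Rps27a and Fau), 6 were below 0 with a median log2 fold change of −0.31, 1 was called (Rps2), and 5 had an unadjusted p under 0.05. Rps3, which has no recurring window, had 16.4 ± 1.94 CPM in libraries labelled TAAR5-KO and 19.7 ± 2.61 in those labelled WT (log2 fold change −0.25, likelihood ratio test, adjusted p = 0.282). The 6 genes of the tunnel exit had a median of −0.04, 4 below 0, with none called or at an unadjusted p under 0.05. Of the 17 genes mutated in Diamond-Blackfan anaemia, in which red cell formation fails, 16 were tested. Their median was −0.09, with 12 below 0, none called and 4 (Rpl18, Rps28, Rps19, Rps26) at an unadjusted p under 0.05.

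The remaining members of interest by function did not pass the test. Log2 fold changes were −0.07 for Rplp0, −0.20 for Rplp1 and −0.21 for Rplp2 of the stalk. They were −0.08 for Rpl5 and −0.16 for Rpl11, and −0.07 for Rps6. Rps27a, a fusion of ubiquitin and a ribosomal protein, had 0.09, and Rpl41, the shortest ribosomal protein, had −0.16. The paralogs and their partners had values near 0, with no resolved direction: 0.12 for Rpl7l1 and −0.01 for Rpl7, 0.18 for Rps27l and 0.04 for Rps27, −0.08 for Rpl22l1 and 0.02 for Rpl22, 0.08 for Rps4l and −0.04 for Rps4x. Leaving out 1 library turned the sign of Rpl7, Rps27, Rpl22l1, Rpl22, Rps4l and Rps4x, with Rps4l running from −0.20 (without NK4) to 0.43 (without NK9). Ribosomal proteins that the symbol rule does not match were in the same range, with −0.13 for Rack1 and −0.37 for Fau (adjusted p = 0.669 and 0.318, likelihood ratio test).

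Other parts of the translation machinery showed a mixed picture. All 8 genes of the elongation factor list, which also holds the Eef2 kinase gene Eef2k, were below 0, with a median log2 fold change of −0.23. Of these, 1 fell by the likelihood ratio test: Eef1g, a subunit of the complex that recharges elongation factor 1A. Its mean was 8.63 ± 0.650 CPM under the label TAAR5-KO against 10.8 ± 0.852 CPM under the label WT, with groups that did not overlap. The log2 fold change was −0.31 (SE 0.0888, likelihood ratio test, adjusted p = 0.0596). The quasi-likelihood test called 0 of the 8 genes. Over all features, 0.691% were called lower by the likelihood ratio test and 0.388% lay lower without overlap. Eef2, the translocase, had a log2 fold change of −0.31 and an adjusted p of 0.103 (likelihood ratio test). The initiation factor list, which also holds the binding protein genes Eif4ebp1 and Eif4ebp2, showed no such tilt. In it 12 of 23 were below 0, with a median of −0.03 and none called. Other TOP mRNA genes had a median of −0.10 (6 of 9 below 0), and regulators of TOP mRNAs −0.02 (6 of 10). The former list shares Eef1a1 and Eef2, both below 0, with the elongation factor list. Ribosome assembly factors had 0.04 (8 of 25 below 0). None of these 3 lists held a called gene. The mitochondrial ribosomal proteins, a separate family, had a median of −0.09 with 52 of 76 below 0 and none called, a median close to that of the cytosolic family. At an unadjusted p under 0.05 (likelihood ratio test), 2 of the 76 were lower and 1 higher, against 17 and 0 of the 77 cytosolic genes.

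GC content moved with these values. Members ranged from 42.7% to 61.0% GC, and the 38 genes above the members' median of 50.5% had a median log2 fold change of −0.14, against −0.04 for the other 39. All features showed the same order, with −0.10 above that GC value (5460 features) and 0.05 at or below it (8442 features). With each library's trend on GC content removed, the median over the 77 genes was −0.04, 49 of 77 were below 0, and 9 had an unadjusted p under 0.05, all in the lower direction, beside 1252 of 13902 features in either direction. Under that setting the Rps2 log2 fold change (55.9% GC) was −0.30, still called with adjusted p = 0.0524, while the Rpl7a log2 fold change (51.3% GC) was −0.29 with adjusted p = 0.242.

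**Figure D5:**
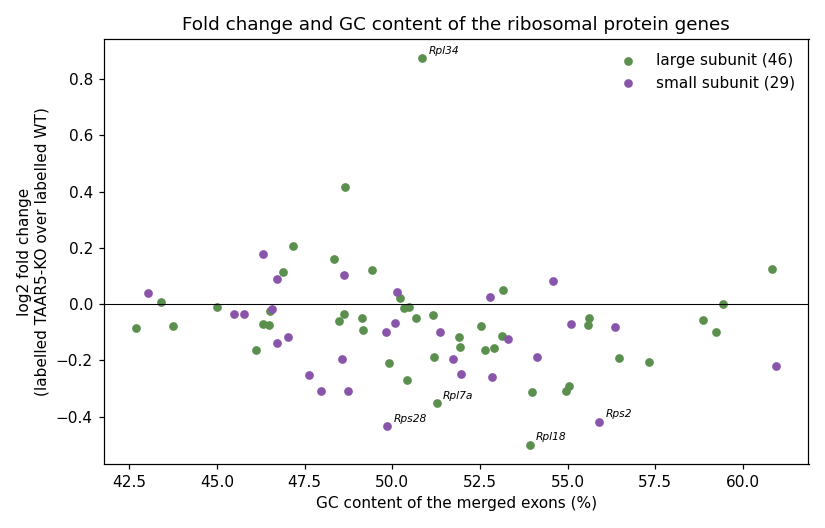
Log2 fold change (labelled TAAR5-KO over labelled WT) against the GC content of the merged exons in percent for the 46 large subunit genes (green) and 29 of the 31 small subunit genes (purple). Values tend lower at higher GC content, with medians over all 77 genes of −0.04 at or below and −0.14 above 50.5% GC, and Rps2, Rpl18, Rpl7a, Rps28 and Rpl34 are named.

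Marker genes of glia had log2 fold changes on one side of 0. For the calls below, the shares over all features were 0.691% lower and 0.957% higher (likelihood ratio test). All 6 tested markers of astrocytes (1 called lower), all 6 of oligodendrocytes (0 called) and all 6 of microglia (2 called lower) were below 0. The summed level ran from 972 to 1190 CPM in libraries labelled TAAR5-KO and from 1081 to 1273 in those labelled WT for astrocytes, from 572 to 700 and from 609 to 780 for oligodendrocytes, and from 25.0 to 36.2 and from 34.8 to 43.3 for microglia, and all 3 pairs of ranges overlap. All 9 spiny neuron markers were above 0 with none called, at 333 to 431 and 195 to 369 CPM. Among the further lists, markers of endothelium (2 of 6 below 0), ependyma (2 of 5) and cortical pyramidal neurons (2 of 6) had no called gene, those of choroid plexus (6 of 6) had none, blood (1 of 5) had 1 called higher, and pituitary (3 of 3 tested, of 6) had 1 called lower. Choroid plexus markers ranged from 2.76 to 470 CPM in libraries labelled TAAR5-KO and from 3.77 to 286 in those labelled WT, and pituitary markers from 0.312 to 5.79 and from 0.468 to 56.04. The part of cell composition in the values of the ribosomal protein genes was not tested.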

How the data were processed

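Striatal RNA of 6 TAAR5-KO and 6 WT mice was analysed. The authors trimmed the reads with cutadapt 4.1, used STAR 2.7.11b for alignment to GRCm39, and made gene counts in featureCounts 2.0.6. They deposited whole-number counts per gene with no normalization and no pooling, beside merged exon lengths. Strand setting and multi-mapping treatment are not given in the sources used here, so rows with near-identical copies or overlapping neighbours are uncertain. A further 12 columns of per-sample values were not used. Depth is given with the results, and floors and SEs cover these libraries only.

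The whole table was fitted with edgeR 4.0.16 (R 4.3.3, limma 3.58.1): a minimum CPM of 0.5 in 3 or more libraries, TMM factors, the two-sided likelihood ratio test with no covariates, and Benjamini-Hochberg adjusted p under 0.1. The quasi-likelihood test stands beside it, and DESeq2 1.42.0 was an alternative. Other alternatives changed scaling, filter, threshold, length and GC trends (loess, span 0.5), the ribosomal RNA covariate, pseudogene rows and single libraries. Leaving out NK10, NK11 and NK12 together, and summing all near-identical copies, were chosen after seeing the data. Scripts were tested on simulated data. Copies were sought with blastn 2.17.0 (identity of at least 95%, coverage of at least 80%). GC content, exonic overlaps and biotypes came from GRCm39 with GENCODE M39. The paper names an earlier release with its reference genome, so the annotation of some rows may differ from that behind the counts.

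Members and lists were chosen with earlier results of these data known. Named genes were all called members, the 5 of each subunit with the smallest p, the 3 highest and 3 lowest levels per length, the stalk and 5S rRNA-binding proteins, Rps6, Rpsa, Rps27a, Rpl41 and the paralogs with their partners. A few genes are not reported here by name and are not drawn, but stay in all counts and medians. The columns carry numbers that are not tied to an animal, so p-values measure the spread between these libraries.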

Additional observations from a re-analysis of the deposited data

Results flagged for a closer look

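In 2 of the 154 sets of 6 values (77 genes under each label), 1 library stood so far from the others that Dixon's 95% limit for 6 values was passed, and chance alone does so in about 1 of 20 sets. Rpl9 was lowest in NK1, labelled TAAR5-KO, at 6.20 CPM, a gap of 0.762 of a range that ends at 7.69 CPM. Rps4l was highest in NK9, labelled WT, at 1.20 CPM, a gap of 0.630 of the range. Neither gene was called between genotypes.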

How the results depend on the processing

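Over all features the call count of 229 became 63 by the quasi-likelihood test, 7 with library size as the only scaling, 93 with no filter beyond 1 count, 86 with the GC trend removed, 98 with the ribosomal RNA share as a covariate, 108 at adjusted p under 0.05 and 15 without NK10, NK11 and NK12. Leaving out single libraries gave 85 (without NK11) to 414 (without NK4). For the large subunit the 1 call became 0 by the quasi-likelihood test, with library size only, with no filter, with the length or GC trend removed, at adjusted p under 0.05, and without NK10, NK11 and NK12, and ranged from 0 to 3 (without NK4) when single libraries were left out. With the ribosomal RNA covariate that 1 call was Rpl18 in place of Rpl7a. For the small subunit the 1 call became 0 with library size only and without NK10, NK11 and NK12, and ranged from 1 to 2 when single libraries were left out. The cause of these changes was not tested, beyond the smaller number of libraries.

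Median log2 fold changes ran from −0.09 to −0.05 (large) and from −0.20 to −0.09 (small) without single libraries. With library size only they were −0.56 and −0.59, beside a shift of all features to −0.49, and the median level per kb was 3.66. Under DESeq2, RLE size factors, filterByExpr, the CPM filter on TMM library sizes, removal of ribosomal RNA features and both ways of summing pseudogene rows, both called genes stayed called and both medians stayed below 0. No named gene or median that was called changed sign. Genes under 30 counts in every library, 5 of the 77, are limited most by depth. No paired analysis was possible because the columns carry no animal numbers.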
